A study of Homo sapiens with 6 samples.

Results

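Replication-dependent histone genes are the GENCODE protein-coding genes with symbols H2AC, H2BC, H3C or H4C followed by a number, together with H1-1 to H1-5. The rule gave 68 genes of the 20007 protein-coding genes with a unique symbol on chromosomes 1 to 22, X and Y. They comprise 5 H1, 17 H2A, 18 H2B, 13 H3 and 15 H4 genes. Peak records from CUT&RUN, in which an antibody tethers a nuclease that releases the DNA around the bound protein, were assigned to a gene when they overlapped its body or the 1 kb beyond either end. Full-length ZNF469 had 20 of its 19108 records (0.105%) at these genes, and dZF-ZNF469 had 0 of its 54.

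The libraries were made from LX-2 cells, an immortalized human line of hepatic stellate origin, with an anti-ZNF469 antibody. One group of 3 libraries (clone3.4) carried a doxycycline-inducible piggyBac transgene for full-length ZNF469, and the other group of 3 (clone3.1) carried the dZF version, from which most of the zinc fingers are deleted. Both transgenes carry an HA tag, and both groups received 1 µg/mL doxycycline for 24 h. There was no group without a transgene or without doxycycline among the lists used here, and no H3K27ac or expression value was used, so neither the activity of the histone genes nor the share of cells in S phase was measured. Each construct was examined in its own line, so construct and line cannot be told apart. The deposited lists pool the 3 libraries of a group, so there was 1 list per construct, no value per library, no replicate error and no test. All counts and medians below describe these lists, and the 95% limits printed for pileups are exact Poisson limits that cover counting error only.

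Replication-dependent histone genes encode the bulk histones that package newly made DNA, and they are transcribed mainly in S phase. They are short, lack introns in their main transcript, and lie in clusters, where many H2A and H2B genes are arranged head to head and share a single promoter region. Their mRNAs end in a stem-loop in place of a poly(A) tail, and their promoters carry family-specific elements as well as CCAAT boxes, which are bound by the trimeric factor NF-Y.

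The stem-loop was found at most of the genes, but not at all of them. A 6-bp stem around a 4-base loop followed the stop codon of 63 genes with all of its positions complementary. In 2 further genes, H2AC11 and H2AC15, 1 position was not complementary and had a T facing a G. Whether that position pairs in the RNA was not examined. It lay a median of 36 bp after the stop codon, with a range of 23 to 68 bp. No such element was found within 150 bp after the stop codon of H3C6, H2BC10 and H4C13 as annotated. The search took only stems that open with GG around a loop of T, T, T and any base, so other forms would be missed. The median main transcript was 487 bp long, and 67 of the 68 were under 1 kb. The element of H2BC15, the gene of the strongest divergent promoter below, is given with those of H4C1 and H2AC11. The stem of H4C1 differs in its inner bases, and that of H2AC11 has the T facing a G. All were read from hg38 in the sense of the gene, with the stem in capitals.
H2BC15, chr6:27839090-27839105, plus strand: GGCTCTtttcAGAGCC
H4C1, chr6:26022030-26022045, plus strand: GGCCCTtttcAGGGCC
H2AC11, chr6:27133515-27133530, plus strand: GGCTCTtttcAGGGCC

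Of the 12 summits within 250 bp of a histone start, 9 had a CCAAT box within 50 bp. The windows of the others, at H1-3, at H2BC11 and inside H2AC25, are not shown. The first sequences are the stretches between the starts of divergent H2A/H2B pairs (hg38, plus strand), with CCAAT or its complement ATTGG in capitals. The first 3 were overlapped by a full-length record, whose summit lay outside the stretch at H2BC11/H2AC11. The last 2 were not overlapped by one, and both kinds carry the same boxes.
H2AC25/H2BC26, chr1:228457874-228458102, with a record: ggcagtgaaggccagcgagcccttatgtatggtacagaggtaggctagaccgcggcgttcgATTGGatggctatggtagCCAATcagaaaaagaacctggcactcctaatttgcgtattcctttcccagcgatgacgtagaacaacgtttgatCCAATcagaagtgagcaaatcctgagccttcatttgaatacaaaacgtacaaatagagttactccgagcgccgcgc
H2AC7/H2BC7, chr6:26199294-26199515, with a record: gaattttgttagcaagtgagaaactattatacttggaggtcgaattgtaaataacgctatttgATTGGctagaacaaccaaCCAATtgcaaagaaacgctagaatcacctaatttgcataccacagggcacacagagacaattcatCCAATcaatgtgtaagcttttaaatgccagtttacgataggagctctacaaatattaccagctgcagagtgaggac
H2BC11/H2AC11, chr6:27132796-27133042, with a record: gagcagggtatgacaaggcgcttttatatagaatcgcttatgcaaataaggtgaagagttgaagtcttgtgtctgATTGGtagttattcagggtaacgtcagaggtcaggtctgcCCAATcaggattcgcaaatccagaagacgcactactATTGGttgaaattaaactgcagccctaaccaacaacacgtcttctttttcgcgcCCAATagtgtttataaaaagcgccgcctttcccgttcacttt
H2BC12/H2AC12, chr6:27146856-27147105, without a record: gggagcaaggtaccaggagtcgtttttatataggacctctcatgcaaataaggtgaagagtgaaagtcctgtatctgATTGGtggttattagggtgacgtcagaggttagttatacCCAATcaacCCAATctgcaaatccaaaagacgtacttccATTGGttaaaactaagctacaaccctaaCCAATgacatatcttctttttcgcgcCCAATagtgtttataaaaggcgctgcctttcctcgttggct
H2AC17/H2BC17, chr6:27893186-27893424, without a record: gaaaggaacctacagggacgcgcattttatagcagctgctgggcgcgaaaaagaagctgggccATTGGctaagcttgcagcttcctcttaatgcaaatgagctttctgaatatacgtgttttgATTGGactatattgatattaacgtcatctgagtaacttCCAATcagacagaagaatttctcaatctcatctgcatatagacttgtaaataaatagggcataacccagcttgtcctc

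The next sequences are the 40 bp on either side of the summit at further promoters (hg38, plus strand, CCAAT or ATTGG in capitals). The H4C1 window is shown because its nearest box, 46 bp from the summit, falls outside it.
H2AC15/H2BC15, chr6:27838436-27838516: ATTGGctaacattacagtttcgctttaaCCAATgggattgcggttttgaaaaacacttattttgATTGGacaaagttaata
H2BC3, chr6:26043820-26043900: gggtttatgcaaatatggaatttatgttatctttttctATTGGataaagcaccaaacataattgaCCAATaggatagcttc
H2BC5, chr6:26157942-26158022: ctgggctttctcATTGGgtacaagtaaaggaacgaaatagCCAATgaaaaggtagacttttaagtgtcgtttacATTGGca
H3C7, chr6:26250664-26250744: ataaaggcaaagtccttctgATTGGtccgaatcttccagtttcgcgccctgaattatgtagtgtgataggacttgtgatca
H3C10, chr6:27809928-27810008: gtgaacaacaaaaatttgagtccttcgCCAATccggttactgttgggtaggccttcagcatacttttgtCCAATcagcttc
H4C1, chr6:26021497-26021577: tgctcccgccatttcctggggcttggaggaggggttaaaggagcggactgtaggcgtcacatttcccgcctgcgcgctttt

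Of the 68 genes, 24 (35.3%) had a full-length record, while 36.6% of all protein-coding genes did. That background is dominated by longer genes, which offer more room for a record. Among the 50 histone genes with a body under 1 kb, 17 (34%) had a record. The share was 7.82% over all 473 protein-coding genes of that length, histone genes included, and 20 of the 423 others (4.73%). These genes were matched in length only, and whether they are active in LX-2 cells was not examined. A summit within 250 bp of the transcription start was present at 14 of the 68 genes (20.6%), beside 12.8% of all protein-coding genes. Genes that share a record are counted separately in these shares: 10 of the 20 records lay in the windows of 2 histone genes and 10 in the window of 1. Accordingly, 18 genes had 1 record and 6 had 2.

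**Figure D1:**
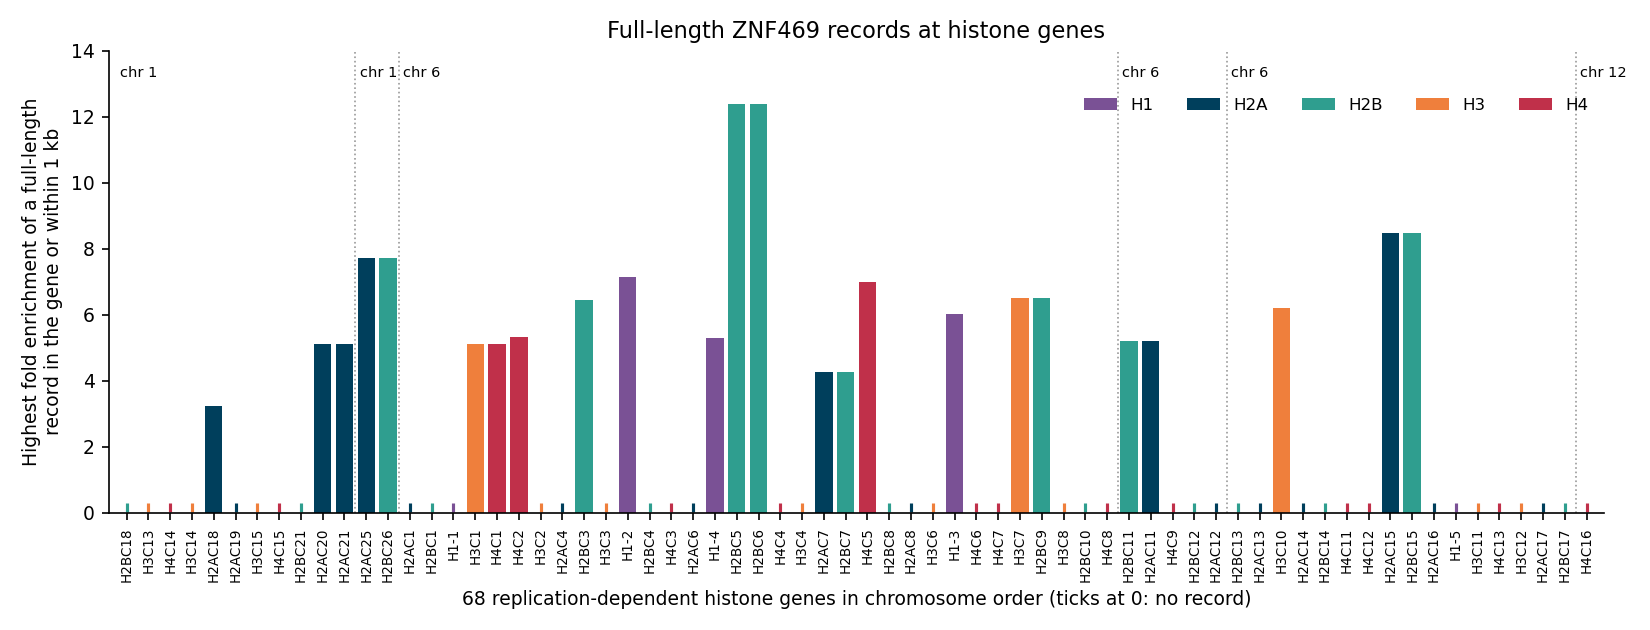
Highest fold enrichment of a full-length ZNF469 record (linear ratio, y axis) at each of the 68 genes in chromosome order (x axis), coloured by family, with dotted lines between genomic stretches and ticks at 0 for the 44 genes without a record. Adjacent bars of equal height are genes that share 1 record, and the values run from 3.23 to 12.4.

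The dZF list held 0 records at the 68 genes, beside 0.055% of all protein-coding genes (11 of 20007) with one, so the absence at the histone genes is read against a list that is nearly empty throughout. The nearest dZF summit lay 25.1 Mb from a histone start on chromosome 6, where the list has 1 record, and 3.9 Mb away on chromosome 1, where it has 6. Chromosome 12 has 0 dZF records. No full-length record at a histone gene overlapped a dZF record. Full-length records had local backgrounds of at least 0.865 fragments and dZF records of at least 0.625, a ratio of 1.38. The lists also ended at different strengths, with a lowest −log10 p-value of 2.16 for full-length and 7.62 for dZF. The histone records upstream of H2AC18 (3.68) and inside H2AC25 (4.66) lay below the lowest dZF record. The libraries' read totals were not analysed here, and the part of depth in the absence of dZF records was not tested.

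The records at histone genes were modest in fold enrichment but not in fragments. The fold enrichment, the ratio of the summit pileup to the local background with 1 added to each, had a median of 5.33 (quartiles 5.08 and 6.63), beside 7.36 over the full-length list and 7.52 over the 3243 records with a summit within 1 kb of a protein-coding start. The −log10 p-value had a median of 12.8, beside 15 for the list. The pileup, the number of fragments over the summit, had a median of 22 fragments, beside 20. The local background, the number of fragments the peak caller expected there from the neighbourhood, had a median of 2.91 fragments, beside 1.82. Counted record by record, 3 of the 20 lay above the list's median fold enrichment and 4 above its median −log10 p-value, while 12 lay above its median pileup and 16 above its median background. The background enters the fold enrichment and the p-value directly. Why it was higher at these genes was not tested.

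**Figure D2:**
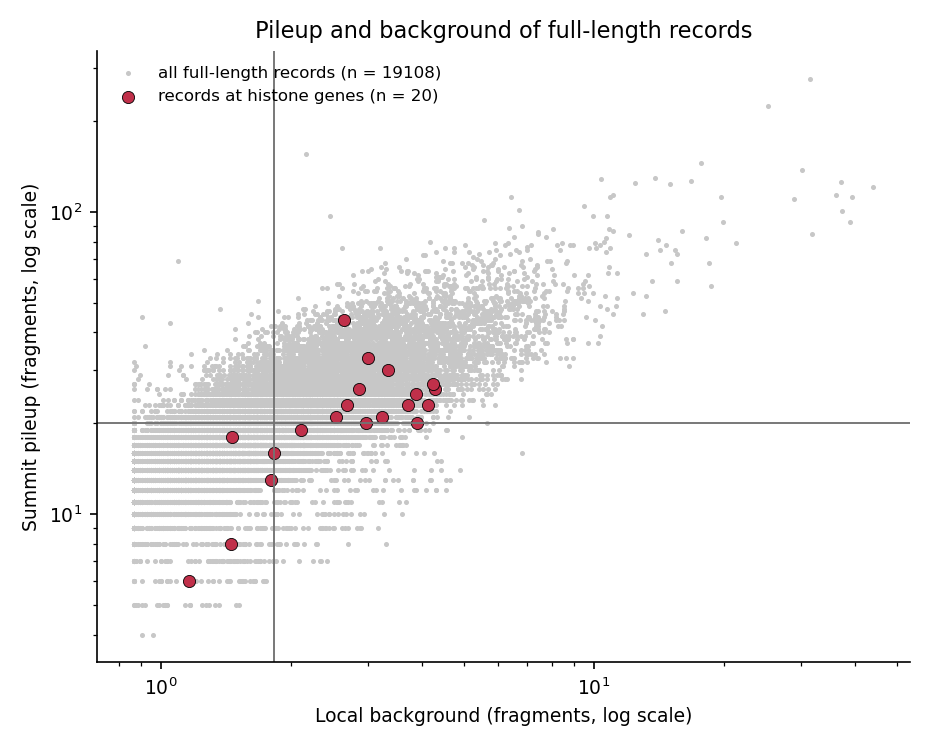
Summit pileup (fragments, log scale) against local background (fragments, log scale) for all 19108 full-length records (grey) and the 20 records at histone genes (red), with lines at the medians of the list (20 and 1.82 fragments). The histone records sit mostly to the right of the background line and on both sides of the pileup line.

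The same difference was seen inside the chromosome 6 cluster. Its 16 histone records had a median background of 2.99 fragments, a median pileup of 23 fragments and a median fold enrichment of 5.68. The 25 other full-length records between the first and last histone gene of the cluster had medians of 1.29 fragments, 17 fragments and 8.06. Over all records of chromosome 6 the median background was 1.84 fragments.

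The genes lie at 4 places. The cluster on chromosome 6 (chr6:25723397-27893891) holds 54 genes in 3 stretches. The first stretch (chr6:25723397-26285638) had a record at 14 of its 33 genes. The second (chr6:27125897-27147562) had one at 2 of 5, and the third (chr6:27807479-27893891) at 3 of 16. The cluster at chr1:149782689-149887965 had a record at 3 of 11 genes, the pair H2AC25 and H2BC26 at chr1:228434777-228463104 at both, and H4C16 on chromosome 12 had none. The whole chromosome 6 span contained 41 full-length records, 18.9 per Mb, compared with 7.63 per Mb over chromosome 6 and 6.19 per Mb over the genome. Of the 21 other protein-coding genes in the span, 8 (38.1%) had a record, beside 36.6% of all protein-coding genes. One of the 8, ENSG00000282988, overlaps the record of H2AC7 and H2BC7, and the others were TRIM38, 4 butyrophilin genes (BTN3A2, BTN2A2, BTN3A3 and BTN2A1) and the zinc finger genes ZNF391 and ZNF184. The corresponding share of the 54 histone genes was 35.2%.

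The linker histone H1 binds DNA between nucleosomes. A record was present at 3 of the 5 H1 genes, H1-2, H1-3 and H1-4, and absent at H1-1 and H1-5. At H1-2 the record had a fold enrichment of 7.15, a −log10 p-value of 19.1 and a pileup of 30 fragments (20.2 to 42.8) over a background of 3.34, and its summit lay 359 bp past the transcript end. H1-3 had a record on each side. One had its summit in the coding sequence, 189 bp after the start, with a fold enrichment of 5.01 and a pileup of 13 fragments (6.92 to 22.2). The other had its summit 187 bp past the transcript end, with a fold enrichment of 6.02 and a pileup of 16 fragments (9.15 to 26). H1-4 shared the record of its neighbour H2BC5. Only 1 H1 gene, H1-3, therefore had a summit at its start.

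H2A and H2B form the outer dimers of the nucleosome core. A record was present at 7 of 17 H2A genes (H2AC7, H2AC11, H2AC15, H2AC18, H2AC20, H2AC21 and H2AC25) and at 8 of 18 H2B genes (H2BC3, H2BC5, H2BC6, H2BC7, H2BC9, H2BC11, H2BC15 and H2BC26). A summit lay at the start of 4 H2A and 6 H2B genes. Several of these serve a divergent pair and are described with it. Of the promoters outside divergent H2A/H2B pairs, that of H2BC3 had a fold enrichment of 6.45 and a pileup of 19 fragments (11.4 to 29.7). A CCAAT box lay at its summit itself, at −147 bp relative to the start. H2BC5 had a fold enrichment of 5.31 and a pileup of 25 fragments (16.2 to 36.9), with a box 2 bp from the summit. At H2AC21 the fold enrichment was 5.1 and the pileup 23 fragments (14.6 to 34.5). A box lay at this summit too, which is in the annotated 5′ untranslated region of BOLA1, a gene that begins in the opposite direction, so the record cannot be assigned to either gene. H2AC20 had no record of its own and lay within 1 kb of this one. The record of H2AC18 was the weakest of all, with a fold enrichment of 3.23, a −log10 p-value of 3.68 and 6 fragments (2.2 to 13.1), and its summit lay at −1261 bp relative to the start.

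The record with the highest fold enrichment of the set was not at a histone promoter of the usual kind. It lay at chr6:26171786-26172187, with its summit between the bodies of H2BC5 and H2BC6 and its end inside that of H2BC6, with a fold enrichment of 12.4, a −log10 p-value of 38.2 and 44 fragments (32 to 59.1) over a background of 2.64. By fold enrichment it ranked 389 of 19108, while the next histone record ranked 5323. Its summit lay 117 bp upstream of the outermost annotated start of H2BC6 and 11.8 kb upstream of the start of its main transcript, and the record overlapped a long noncoding RNA gene, ENSG00000283064. The 50 bp on either side of the summit were 68.3% G or C, and no CCAAT box lay in the record. The median was 63.4% over the full-length records at protein-coding starts. The 40 bp on either side of the summit are shown for comparison with the promoter windows above, of which that of H4C1 also holds no box. They are from hg38, plus strand, with no listed element to capitalise.
Upstream of H2BC6, chr6:26171902-26171982: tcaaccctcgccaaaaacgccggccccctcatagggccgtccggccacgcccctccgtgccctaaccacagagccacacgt

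H3 and H4 form the tetramer at the centre of the nucleosome. A record was present at 3 of 13 H3 genes (H3C1, H3C7 and H3C10) and at 3 of 15 H4 genes (H4C1, H4C2 and H4C5). At H3C7 the fold enrichment was 6.51 and the pileup 23 fragments (14.6 to 34.5), in a record that also fell within 1 kb of H2BC9. At H3C10 the fold enrichment was 6.21 and the pileup 21 fragments (13 to 32.1). Both summits lay upstream of the start, at −69 and −83 bp, with a CCAAT box 18 and 11 bp away. The H4C1 start, whose record also fell in the window of H3C1, had a fold enrichment of 5.1 and 26 fragments (17 to 38.1) over the highest background of the 20 records, 4.3 fragments.

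H4C1 was the only H4 gene with a summit at its start. H4C2 and H4C5 each had a pair of records past the end of the transcript. Those of H4C2 lay 503 and 1096 bp past it, with fold enrichments of 4.68 and 5.34 and pileups of 23 (14.6 to 34.5) and 27 fragments (17.8 to 39.3). Those of H4C5 lay 309 and 1022 bp past it, with fold enrichments of 5.29 and 6.99 and pileups of 20 (12.2 to 30.9) and 26 fragments (17 to 38.1). The distal H4C2 record was the only one of the 20 with an AP-1 element (TGANTCA, either strand) within 50 bp of its summit. AP-1 elements were within 50 bp of 25.9% of all full-length summits but of 2.08% of those at protein-coding starts.

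Of the 20 summits, 12 lay within 250 bp of a histone start, 6 past a transcript end, and 2 upstream. Among the 12, 9 were upstream of the start and 3 were within a coding sequence (H2AC25, H1-3 and H2BC11), over a range of −147 to 189 bp with a median of −78.5 bp. Fold enrichment did not separate the kinds: the median was 5.25 (3.67 to 8.48) at starts and 5.68 (3.23 to 12.4) elsewhere.

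**Figure D3:**
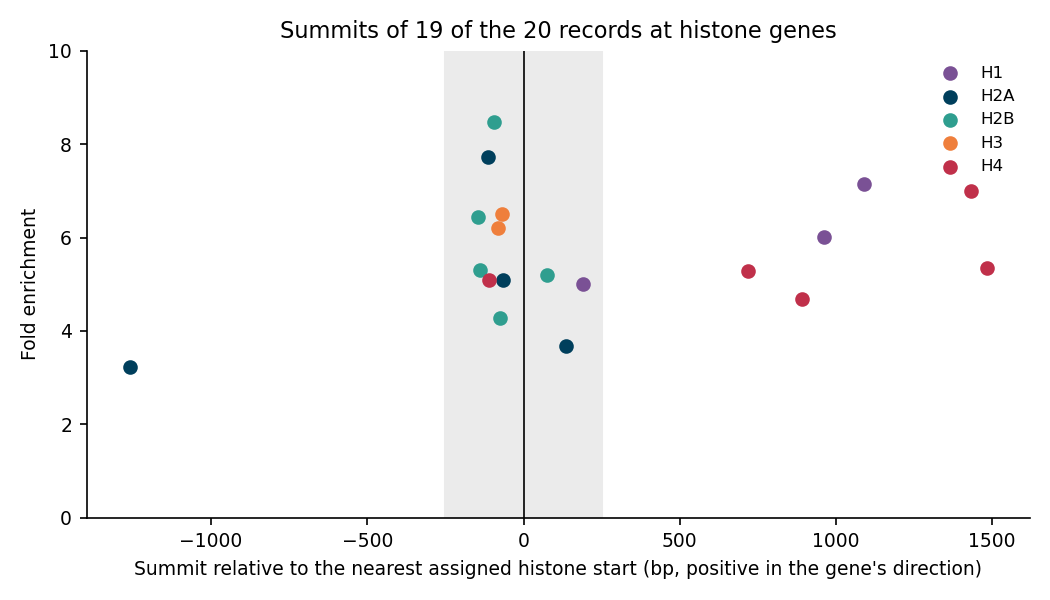
Fold enrichment (y axis) against the distance in bp from the nearest assigned histone start to the summit (x axis, negative upstream), coloured by family, for 19 of the 20 records. The shaded band marks 250 bp on either side of the start and holds 12 summits, and the record 11.8 kb upstream of the H2BC6 main transcript is left off the plot.

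A CCAAT box lay within 50 bp of the summit of 10 of the 20 histone records (50%), beside 19.5% of all full-length records. The contrast was smaller against other promoters. Of the 12 records at a histone start 9 (75%) had such a box, and so did 42% of the 2308 full-length records with a summit within 250 bp of a protein-coding start. Of the 8 histone records elsewhere 1 did, that of H1-2, at 25 bp. A box lay at the summit base itself in 3 records (H2AC21, H2BC3 and H2AC7/H2BC7). Counted over the whole length of the records at starts, boxes occurred 6.65 times per kb at the histone genes, 3.12 times per kb at all protein-coding starts and 1.82 times per kb over the list. The 50 bp on either side of the histone start summits were also less rich in G and C, with a median of 44.1% against 63.4% at protein-coding starts.

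The boxes belong to histone promoters whether or not a record was present. In the RefSeq promoter sequences (GRCh38.p14, 250 bp before to 50 bp after the start), which matched 63 of the 68 genes and lacked H2AC12, H3C11, H3C12, H4C1 and H4C3, CCAAT on either strand occurred in 53 (84.1%). It occurred in 34.6% of all 35116 RefSeq promoters. All 5 H1, 16 H2A, 18 H2B and 11 H3 promoters had it, but 3 of 13 H4 promoters (23.1%). It was present in all 13 matched promoters with a summit at the start and in 40 of the 50 without one. The 10 that lacked it were all H4 promoters. Outside the H4 family, where every matched promoter had a box, 13 of 53 genes had a summit at the start.

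**Figure D4:**
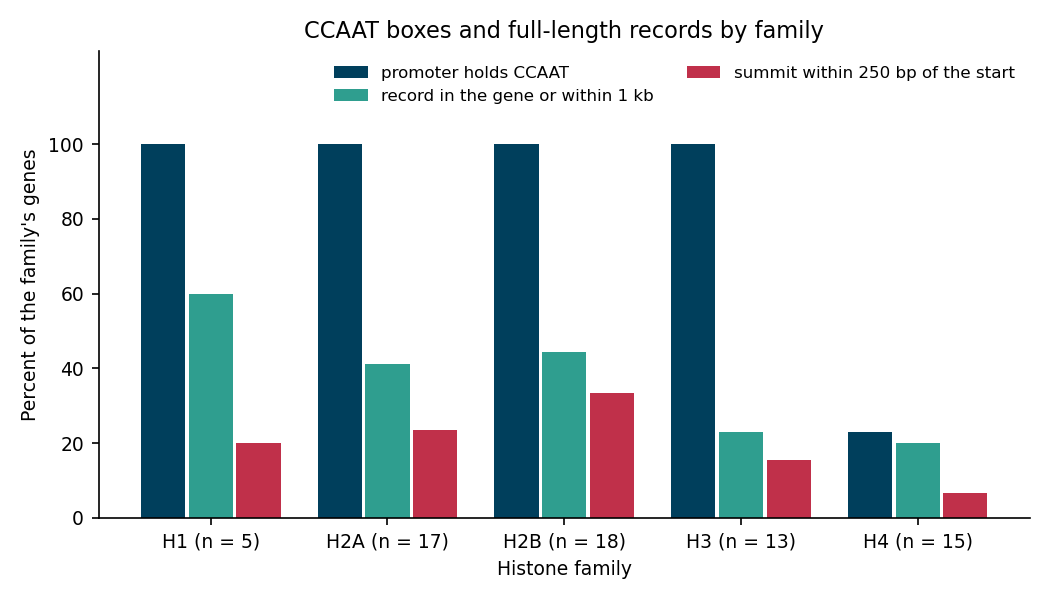
Percent of each histone family (x axis) whose matched RefSeq promoter holds CCAAT, whose genes have a full-length record in the body or within 1 kb, and whose genes have a summit within 250 bp of the start (y axis, percent). The CCAAT bars are taken over the 5, 16, 18, 11 and 13 matched promoters, and the other bars over all genes of the family. CCAAT is at 100% in every family except H4 (23.1%), while records range from 20% (H4) to 60% (H1).

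Other elements known from histone promoters marked the families. All were searched on both strands, and a match describes letters only. The octamer ATTTGCAT, bound by OCT1, occurred in 11 of 16 H2A and 14 of 18 H2B promoters and in no H1, H3 or H4 promoter, beside 1.77% of all promoters. It was present in 5 of 13 promoters with a summit at the start (38.5%) and in 20 of 50 without (40%). The H1 box AAACACA occurred in all 5 H1 promoters and in 5.64% of all promoters. The H4 element GGTCCG occurred in 12 of 13 H4 promoters and in 11.3% of all. TATAAA occurred in 42 of the 63 histone promoters (66.7%) and in 11.5% of all, and the letters TTTNNCGC, a form of the E2F element, in 20 (31.7%) and in 6.89%. TATAAA was found in 7 of 13 promoters with a summit and in 35 of 50 without, and TTTNNCGC in 2 of 13 and 18 of 50. AP-1 occurred in 1 of the 63 (1.59%), an H3 promoter, and in 7.71% of all promoters.

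Divergent H2A/H2B promoters carried a record at a share close to that of divergent promoters in general. There were 12 head-to-head pairs of an H2A and an H2B gene with starts at most 0.5 kb apart, and the stretch between their starts was 193 to 250 bp long. A full-length record overlapped it in 4 pairs (33.3%), beside 33.9% of the 781 divergent pairs of protein-coding genes. At least 3 CCAAT boxes lay between the starts in all 12 pairs, with a median of 3 both in the 4 with a record (3 to 4 boxes) and in the 8 without (3 to 6 boxes). Only 38.6% of the 769 other divergent pairs had any, but those pairs were not matched in the length between the starts.

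The strongest was H2AC15/H2BC15, with a fold enrichment of 8.48, a −log10 p-value of 23.5 and 33 fragments (22.7 to 46.3) over a background of 3.01. Its summit lay 4 bp from the midpoint between the starts, 10 bp from a box. H2AC25/H2BC26 on chromosome 1 had a fold enrichment of 7.72 and 18 fragments (10.7 to 28.4), with its summit 2 bp from the midpoint. A second, weaker record followed 136 bp into H2AC25, in its coding sequence, with a fold enrichment of 3.67 and 8 fragments (3.45 to 15.8). At H2AC7/H2BC7 the fold enrichment was 4.27 and the pileup 20 fragments (12.2 to 30.9), and the summit was on the box nearest H2BC7. At H2BC11/H2AC11 the record covered the stretch between the starts, with a fold enrichment of 5.2 and 21 fragments (13 to 32.1), but its summit lay 76 bp inside H2BC11 and 154 bp from the nearest box. Summits thus lay between the starts in 3 of the 4.

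**Figure D5:**
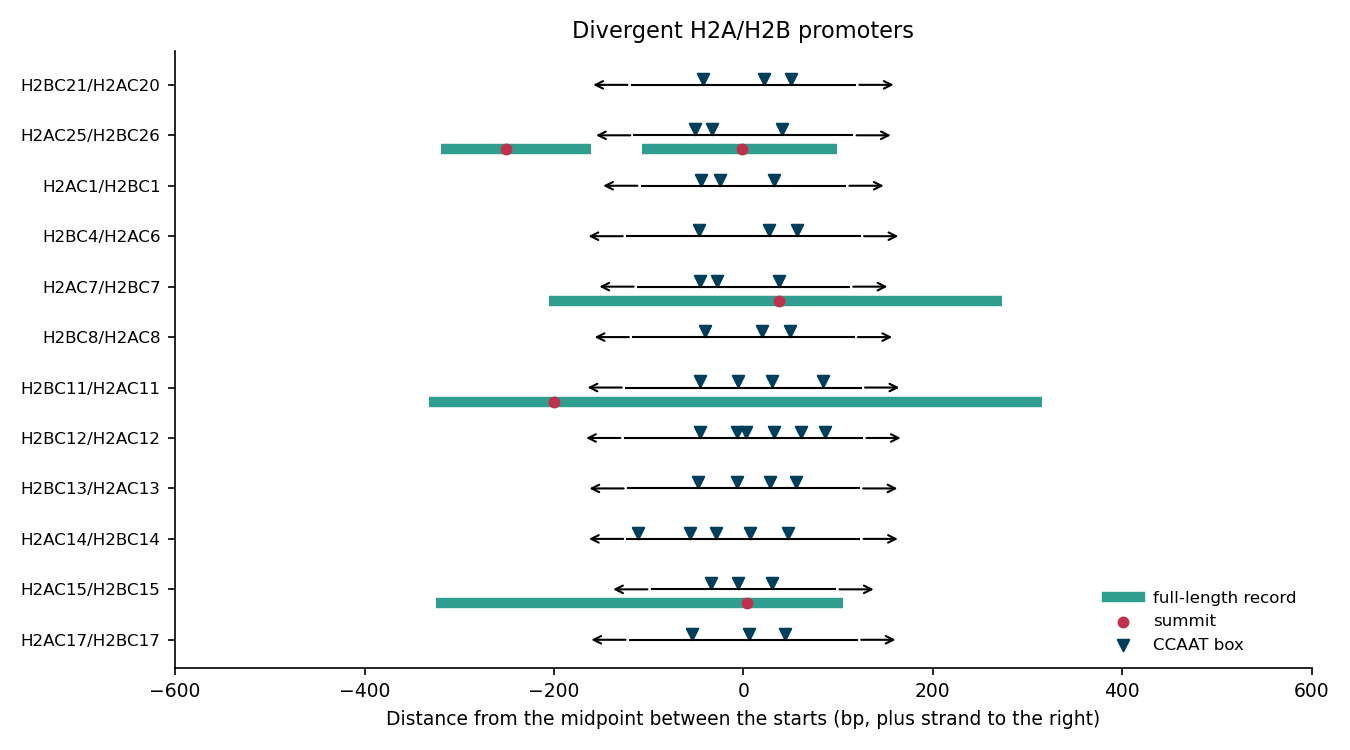
Map of the 12 divergent H2A/H2B promoters, each centred on the midpoint between its starts (x axis, bp), with arrows for the directions of transcription, triangles for CCAAT boxes, bars for full-length records and dots for their summits. All 12 carry 3 to 6 boxes between the starts, and 4 carry a record there.

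The pairs with and without a record differed in another element. TATAAA lay between the starts in 1 of the 4 pairs with a record (H2BC11/H2AC11, the pair whose summit was off centre) and in all 8 without one. The octamer lay in 2 of the 4 and in 7 of the 8. Both contrasts were noticed in these 12 pairs and have no test. Among histone genes outside divergent H2A/H2B pairs, 7 of 44 (15.9%) had a summit at the start, and within pairs 7 of 24 did. The 44 include H2AC21, which faces away from BOLA1.

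No record was found at 44 genes. On chromosome 1 these were H2BC18, H2BC21, H2AC19, H3C13, H3C14, H3C15, H4C14 and H4C15. In the first stretch of chromosome 6 they were H1-1, H2AC1, H2AC4, H2AC6, H2AC8, H2BC1, H2BC4, H2BC8, H2BC10, H3C2, H3C3, H3C4, H3C6, H3C8, H4C3, H4C4, H4C6, H4C7 and H4C8. In the second they were H2AC12, H2BC12 and H4C9, and in the third H1-5, H2AC13, H2AC14, H2AC16, H2AC17, H2BC13, H2BC14, H2BC17, H3C11, H3C12, H4C11, H4C12 and H4C13. The last was H4C16 on chromosome 12. Their starts lay 1.35 to 236 kb from the nearest full-length summit, with a median of 10.9 kb, under 5 kb at 10 genes and over 10 kb at 25. The testis-expressed pair H2AC1/H2BC1 was the farthest, at 236 kb.

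Near-identical copies limit what can be seen on chromosome 1. Over the gene and 1 kb on either side, more than 50% of the 51-base stretches (the read length) occurred elsewhere in hg38 at 8 genes, all in the cluster at chr1:149782689-149887965. The share was 100% at H3C14, H3C15, H4C14 and H4C15, 90.4% at H2AC18, 90.3% at H2AC19, 67.3% at H3C13 and 61.5% at H2BC18. H4C14 and H4C15 have identical transcripts, and those of H2AC18 and H2AC19 are 99.8% identical. Of these 8 genes 1 had a record, H2AC18, and of the other 60, all under 20%, 23 did (38.3%). All 20 records themselves contained no 51-base stretch with an exact copy elsewhere in hg38. Copies with mismatches were not counted. How reads with several equal positions were treated is not given in the sources used here, and an absent record at the 8 genes does not show that ZNF469 was absent there.

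Histone genes outside the 68 were examined for comparison. Of 11 replication-independent variants 7 had a full-length record (63.6%), beside 36.6% of all protein-coding genes, and 5 of the 11 had a summit at the start, beside 12.8%. None had a dZF record. H3-3B, which encodes a replacement form of H3, had the highest, with a fold enrichment of 11.6 and 68 fragments. CENPA, the centromeric H3 variant, had 10.9, H2AZ1 10, H1-10 9.16, H3-3A 8.67, H2AZ2 7.82 and H2AX 7.14. Most of these genes are longer than the replication-dependent ones, and no comparison at equal length was made. Of 14 genes listed as testis or germline histones 0 had a record, beside the same 36.6% of all protein-coding genes and 7.82% of those under 1 kb. Where these 14 genes are expressed was not examined.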

How the data were processed

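CUT&RUN with an anti-ZNF469 antibody was analysed in 6 LX-2 libraries, grouped by their titles into 3 full-length and 3 dZF. The authors combined the libraries of a group and deposited 1 list of peak records per construct, kept by an irreproducible discovery rate filter. The deposited lists give a score derived from that rate (not used for ranking), a fold enrichment (a ratio to local background), a −log10 p-value and a summit for each record; the −log10 q-value was not used. Per the labels, bcl2fastq, Bowtie2 2.3.4.3, MACS2 2.2.5, R 4.2.1, deepTools 3.5.1 and build hg38 were used, with no roles given. The study's methods state fixed cells and paired reads of 51 bases. The labels and methods name different selection drugs for the transgenic lines.

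From these, whole-number pileups were recovered by solving the caller's formulas for both columns (largest miss in −log10 p 6.9e-05). The step was tested on values computed from recovered pileups with the same formulas, which checks the solving and not the formulas. Genes and main transcripts came from GENCODE 44 and sequences from hg38 and the RefSeq promoters. Peak-to-gene windows, motifs and repeated 51-base stretches (counted as single reads, which understates what paired reads resolve) were computed with Python 3.11.15, numpy 2.4.6, pandas 2.3.3, scipy 1.17.1, pysam 0.24.0 and numba 0.67.0, and plotted with matplotlib 3.10.9. Genes within 1 Mb of each other formed a cluster and within 0.5 Mb a stretch.

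The 68 genes, the comparison lists and the motifs were chosen with earlier results of these data known. Values were to be named for the 10 records with the highest fold enrichment, the 5 with the highest −log10 p-value, the 5 with the lowest fold enrichment, the highest of each family and cluster, and the divergent pairs. The remaining 3 records (H4C1, H2BC5 and the nearer H4C5 record) were added after their values were seen so that all 20 are given. Alternatives changed the window, the ranking cutoff, the assignment and the CCAAT distance. One gene of the comparison list of replication-independent variants is not reported here and was left out of its counts.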

Additional observations from a re-analysis of the deposited data

How the results depend on the processing

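No paired analysis was possible because the libraries of a group were merged into 1 list without values of their own, and leaving out a library was not run for that reason. Of 41 alternatives, 33 stayed within 1.5 times of the value given above. These 33 include the alternatives for the dZF list, whose counts of 0 could not change. The number of histone genes with a full-length record, 24, fell to 6 among the upper 50% of the list by fold enrichment and to 2 among the upper 25%, to 4 among the upper 25% by −log10 p-value and to 6 among the upper 25% by pileup. The number of records, 20, became 3 and 1 in the upper 50% and 25% by fold enrichment and 13 with the gene bodies alone. The number with a CCAAT box within 50 bp of the summit, 10, became 2 in the upper 50% by fold enrichment. Each of these settings keeps fewer records by construction. The fall by fold enrichment went beyond the cutoff itself, since only 3 of the 20 records lay above the list's median. The shares of all protein-coding genes at these cutoffs and at other windows are not given here. Windows of 0.25 and 3 kb gave 18 and 31 genes, and giving each record only to the nearest start gave 16. The dZF count was 0 under each of its 6 alternatives. None of them could have changed it, since the nearest dZF summit lay 3.9 Mb from a histone start. Of the alternatives, 3 were added after the data were seen: main transcripts in place of gene bodies (23 genes, 19 records), and leaving out the 8 genes with over 50% repeated sequence (23 genes). Pileups at the histone records were 6 to 44 fragments, with Poisson limits of 2.2 to 13.1 for the lowest and 32 to 59.1 for the highest, and the limits of records next to each other in pileup overlapped.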

Other observations

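Genes that serve histone production were also examined, as a list of 23 factors of histone gene transcription, mRNA 3′ end processing and histone assembly. Of these, 13 (56.5%) had a full-length record, 4 of them with a summit within 250 bp of the start (POU2F1, NFYC, ASF1A and CHAF1A), and 0 had a dZF record. All 3 subunits of NF-Y, the factor that binds CCAAT boxes, were among them. NFYB had a fold enrichment of 10.6 and a pileup of 39 fragments. NFYC had 4 records, the highest with a fold enrichment of 9.92 and 27 fragments. NFYA had a fold enrichment of 7.91 and 36 fragments. POU2F1, which encodes OCT1, had a record at its start with a fold enrichment of 6.29 and 18 fragments. CASP8AP2, a component of histone locus bodies, had the highest fold enrichment of the list, 10.8, with 36 fragments. NPAT, the activator of histone gene transcription, HINFP, which binds the H4 element, and SLBP, which binds the mRNA stem-loop, had none. These genes are mostly long, and 36.6% of all protein-coding genes had a record and 12.8% a summit at the start.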
